A study of Rattus norvegicus with 22 samples.

Results

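Keratins are the intermediate filament proteins of epithelial cells, and adipocytes are not known for making them. Every row of the deposited gene table whose symbol is Krt followed by a number was taken as a keratin gene, which gave 39 of 24286 genes. Of these, 5 were set apart as simple keratins (Krt7, Krt8, Krt18, Krt19 and Krt20) and 34 were other keratins. They were followed over 22 RNA-seq libraries of rat fat. Of the 39 genes, 13 passed the filter on low values (5 or more libraries with an FPKM of 1 or above) and were tested, and 26 were not.

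The study set fat of rats given a duodenal-jejunal bypass (DJB), surgery after which food skips the duodenum, against fat of rats with type 2 diabetes (T2DM). Mesenteric fat stood for the visceral depot and groin fat for the subcutaneous one, which gave 6 visceral DJB, 6 visceral T2DM, 5 subcutaneous DJB and 5 subcutaneous T2DM libraries. The labels give all 4 groups the genotype WT, a high-fat diet (HFD) and 4 months, without saying from when the months were counted. Their shared treatment text names streptozotocin (30 mg/kg), which kills the beta cells of the pancreas, and the bypass for every sample, so which rats had which treatment is known here from the group names alone. There was no sham-operated and no healthy group, so diabetic fat is the comparator throughout. Neither sex, strain nor the rat behind each library was given in the sources used here, so the p-values reflect the spread among libraries, some of which may come from the same animal. Libraries held 46824314 to 88829000 counts. Levels below are CPM, which are counts scaled to a common library size by the TMM method. Comparisons between genes use FPKM, which is divided by gene length and was taken as deposited, without the TMM factors.

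Keratins are built as pairs of a type I and a type II protein, and different epithelia use different pairs. Single-layered epithelia, ducts and mesothelium, the lining of the peritoneum, use type II Krt8 and Krt7 with type I Krt18 and Krt19. Urothelium, the lining of the bladder and ureter, is known for Krt7, Krt8, Krt18, Krt19 and, in its surface cells, Krt20, above basal cells with Krt5. The mammary gland, which in rodents lies within the groin fat pad, has luminal cells with Krt8, Krt18 and Krt19 and basal cells with Krt5, Krt14 and Krt17. Skin epidermis has Krt5 and Krt14 in its basal layer and Krt1, Krt2 and Krt10 above it. In the table, 21 keratin genes lay on chromosome 7 and 18 on chromosome 10. All 20 type II genes were on chromosome 7, together with 1 type I gene, Krt18. Reads of closely related keratins can be shared by the counting step, which is not given in the sources used here, so values of single members are uncertain to that extent.

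Krt8 and Krt18 are partners that neighbour each other, with 0 protein-coding genes between them in RefSeq's GRCr8 annotation. The 250 bases before their RefSeq starts are shown with those of Krt5, a basal keratin, and Krt20, because these genes moved together in visceral fat, as described further on. Capitals mark a TATA box word (TATAAA) or a GC box word (GGGCGG), searched on both strands. The window of Krt8 is chr7:135010340-135010589 on the minus strand, that of Krt18 is chr7:135035918-135036167 on the plus strand, that of Krt5 is chr7:134730570-134730819 on the minus strand and that of Krt20 is chr10:84890286-84890535 on the minus strand, all in GRCr8.
Krt8: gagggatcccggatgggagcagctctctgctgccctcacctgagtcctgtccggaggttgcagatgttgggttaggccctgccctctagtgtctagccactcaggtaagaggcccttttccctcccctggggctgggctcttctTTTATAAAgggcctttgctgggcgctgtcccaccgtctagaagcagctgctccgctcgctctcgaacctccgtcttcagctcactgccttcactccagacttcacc
Krt18: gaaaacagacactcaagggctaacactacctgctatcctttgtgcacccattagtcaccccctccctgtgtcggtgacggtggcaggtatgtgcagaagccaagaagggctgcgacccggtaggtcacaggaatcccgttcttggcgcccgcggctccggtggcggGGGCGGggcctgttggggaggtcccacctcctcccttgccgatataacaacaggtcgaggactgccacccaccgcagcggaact
Krt5: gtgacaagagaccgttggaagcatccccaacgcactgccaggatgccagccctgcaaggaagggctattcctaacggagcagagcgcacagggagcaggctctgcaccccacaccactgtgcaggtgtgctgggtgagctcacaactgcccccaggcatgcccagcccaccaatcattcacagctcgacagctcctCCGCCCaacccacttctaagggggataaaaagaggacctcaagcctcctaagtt
Krt20: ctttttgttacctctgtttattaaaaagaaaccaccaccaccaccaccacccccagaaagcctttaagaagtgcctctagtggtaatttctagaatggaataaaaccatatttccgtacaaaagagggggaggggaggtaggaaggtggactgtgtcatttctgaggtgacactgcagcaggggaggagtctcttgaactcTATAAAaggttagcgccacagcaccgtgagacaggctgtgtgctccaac
The Krt8 window held TATAAA on both strands as 1 overlapping run that began 106 bases before the start. The Krt20 window held TATAAA from 49 bases before the start. The Krt18 and Krt5 windows held no TATAAA and 1 GC box word each, from 84 and 54 bases before the start. Over the 26 keratin genes with an entry, 15 of 28 windows (53.6%) held TATAAA, against 12.9% of all 33469 windows of the same length. GGGCGG was in 14.3% of the keratin windows and in 30.5% of all windows, and the AP-1 word TGANTCA was in 3.57% and 6.34%. These are matches of letters and not sites shown to be used. Not printed for lack of an entry were Krt1, Krt7, Krt13, Krt14, Krt15, Krt16, Krt17, Krt19, Krt80, Krt81, Krt83, Krt86 and Krt222.

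In visceral fat, simple and basal keratins were lower after DJB than in T2DM, and the highest levels were those of 3 of the 6 T2DM libraries, numbers 2, 3 and 4. All 6 visceral DJB libraries had low levels of all 5 simple keratins. Of the 13 keratins tested, 9 fell and 0 rose at an adjusted p under 0.05 (edgeR's quasi-likelihood test, Benjamini-Hochberg over 14019 genes). Over all genes tested, 4.69% were called in this comparison, 4.27% as lower and 0.421% as higher. At an unadjusted p under 0.05 there were 11 of 13 keratins, against 22.2% of all genes. The median log2 fold change of the 13 keratins was -5.26, against -0.03 over all genes. No visceral DJB library reached an FPKM of 1 for Krt5, Krt10, Krt14, Krt15, Krt17, Krt20 or Krt23. These genes passed the filter only through the other groups, so the counts and the median are in part set by the filter. In bulk tissue, fewer cells of a type and less RNA per cell cannot be told apart.

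Krt7, the type II keratin of urothelium, ducts and mesothelium, ranged over 0.456 to 4.18 CPM with a median of 2.40 CPM in visceral DJB libraries, and over 1.23 to 624 CPM with a median of 227 CPM in visceral T2DM libraries. The 3 high T2DM libraries were number 2 with 556 CPM, number 3 with 624 CPM and number 4 with 434 CPM. Number 1 was intermediate with 18.8 CPM, and numbers 5 and 6 had 4.64 and 1.23 CPM, within or close to the range of the DJB libraries. The groups averaged 2.34 ± 1.52 CPM in visceral DJB and 273 ± 297 CPM in visceral T2DM (SD, n = 6 each). The log2 fold change of Krt7 was -6.87 with a standard error of 1.20 (edgeR adjusted p = 0.0170).

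Krt8 and Krt18 form the basic filament pair of simple epithelia. Krt8 ranged over 1.99 to 9.64 CPM with a median of 5.61 CPM in visceral DJB libraries, and over 3.81 to 506 CPM with a median of 156 CPM in visceral T2DM libraries. T2DM libraries 2, 3 and 4 again stood above all DJB libraries, with 337, 506 and 297 CPM. The log2 fold change was -5.11 with a standard error of 1.25 (edgeR adjusted p = 0.0333). Krt18 ranged over 0.652 to 8.57 CPM with a median of 1.72 CPM in visceral DJB libraries, and over 1.09 to 265 CPM with a median of 73.0 CPM in visceral T2DM libraries. Its log2 fold change was -5.26 with a standard error of 1.39 (edgeR adjusted p = 0.0386), so both partners fell by a similar size. The 2 groups overlapped for both genes, since T2DM libraries 5 and 6 lay within the DJB range.

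Krt19, a type I keratin of ducts, urothelium and mesothelium, ranged over 1.08 to 4.42 CPM with a median of 1.56 CPM in visceral DJB libraries. In visceral T2DM libraries it ranged over 1.55 to 454 CPM with a median of 147 CPM. Its log2 fold change was -6.58 with a standard error of 1.39 (edgeR adjusted p = 0.0300). Krt20, the type I keratin of urothelial surface cells and intestinal epithelium, was the least abundant of the simple keratins. It had 7 counts over the 6 visceral DJB libraries, all in library 4, and 1691 counts over the 6 visceral T2DM libraries. Levels in T2DM libraries 2, 3 and 4 were 3.97, 9.44 and 9.70 CPM, and the other 3 were at or below 0.426 CPM. The fitted log2 fold change of -7.75 (standard error 1.84, edgeR adjusted p = 0.0329) rests on those 7 counts on the DJB side and depends on the prior count of the fit.

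**Figure D1:**
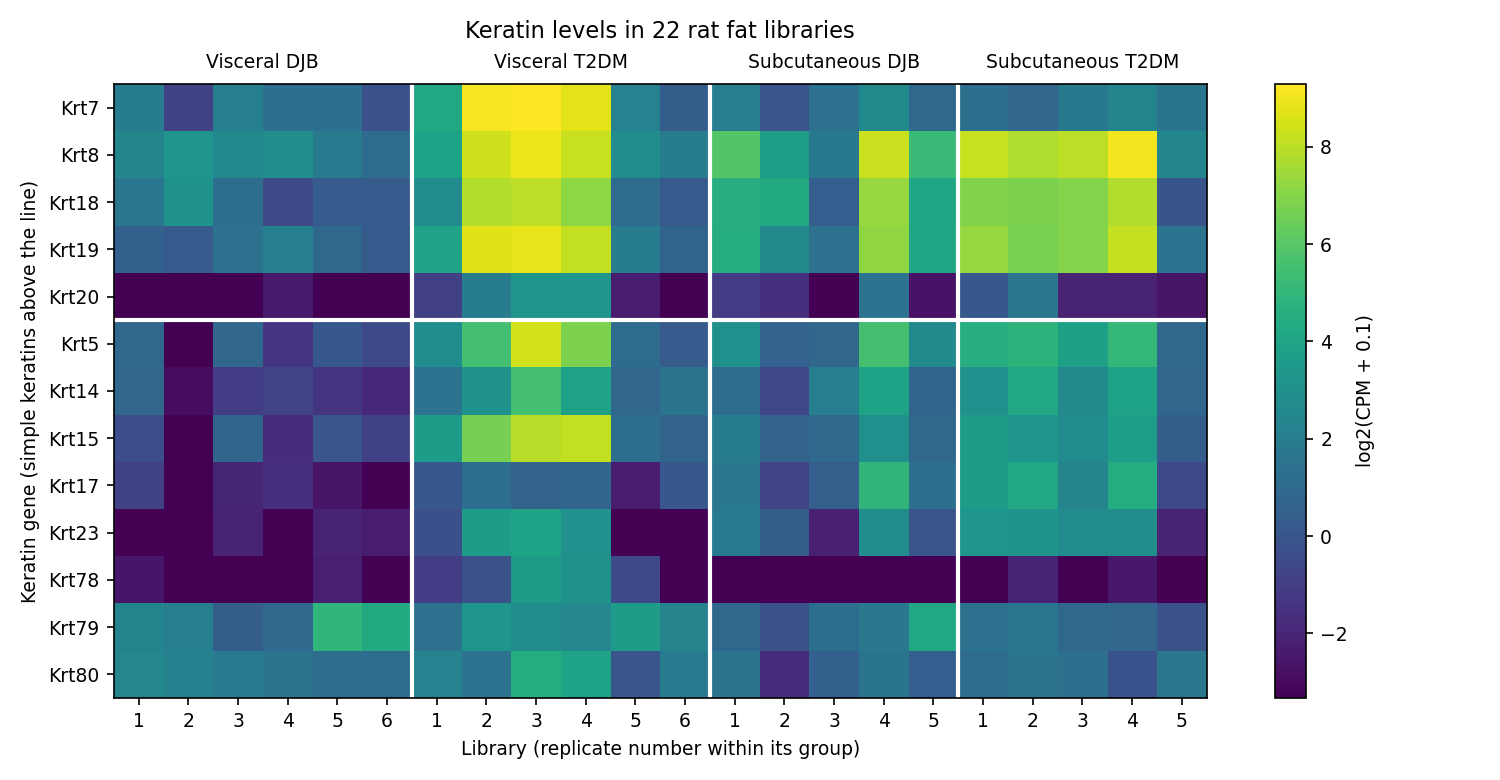
Levels of the 13 keratins given by library, as log2(CPM + 0.1), in 22 libraries grouped by depot and condition; simple keratins are above the white line. Visceral T2DM libraries 2, 3 and 4, subcutaneous T2DM libraries 1 to 4 and subcutaneous DJB library 4 are bright for Krt8, Krt18 and Krt19. Krt7 is bright in visceral T2DM libraries 2, 3 and 4 and dark in all subcutaneous libraries.

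The basal keratins of stratified epithelia moved with the simple ones. Krt5, the type II keratin of basal cells, ranged over 0 to 1.73 CPM with a median of 0.789 CPM in visceral DJB libraries, and over 1.13 to 345 CPM with a median of 26.0 CPM in visceral T2DM libraries. T2DM library 3 alone reached 345 CPM, followed by library 4 with 112 CPM and library 2 with 45.2 CPM. The fitted log2 fold change was -6.60 with a standard error of 1.43 (edgeR adjusted p = 0.0329). Krt14, its usual type I partner, ranged over 0.0326 to 1.68 CPM in visceral DJB libraries and over 1.72 to 45.5 CPM in visceral T2DM libraries. The groups did not overlap, although the highest DJB and the lowest T2DM library were almost level. The log2 fold change was -4.64 with a standard error of 1.03 (edgeR adjusted p = 0.0329).

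Krt15, a type I keratin of basal cells, ranged over 0 to 1.62 CPM with a median of 0.594 CPM in visceral DJB libraries, and over 1.52 to 283 CPM with a median of 57.4 CPM in visceral T2DM libraries. Its log2 fold change was -7.36 with a standard error of 1.29 (edgeR adjusted p = 0.0170). Krt23, a type I keratin of glandular epithelia, was at most 0.142 CPM in visceral DJB libraries, where it had 24 counts in all. T2DM libraries 2, 3 and 4 had 12.3, 15.5 and 8.34 CPM of Krt23, and libraries 5 and 6 had no counts of it. On the log2 scale the change was -6.61 with a standard error of 1.60 (edgeR adjusted p = 0.0333).

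The other 4 keratins tested did not pass in visceral fat. Krt17, a keratin of wounded skin, hair follicles and mammary basal cells, was 0 to 0.469 CPM in DJB libraries and 0.0983 to 2.23 CPM in T2DM libraries (edgeR adjusted p = 0.0992). Krt10, an epidermal keratin of the layers above the basal one, had a median of 0.862 CPM in DJB and 1.81 CPM in T2DM libraries (edgeR adjusted p = 0.0558). Krt80, found in many differentiating epithelia, was 2.07 to 5.60 CPM in DJB libraries and 0.909 to 22.4 CPM in T2DM libraries (edgeR adjusted p = 0.241). Its highest values were the 22.4 and 15.9 CPM of T2DM libraries 3 and 4.

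Krt79, known in mouse skin from the ducts of sebaceous glands and the mouth of the hair follicle, had its own pattern. It ranged over 1.24 to 31.03 CPM with a median of 4.53 CPM in visceral DJB libraries, and over 2.54 to 12.2 CPM with a median of 6.10 CPM in visceral T2DM libraries. The highest libraries were DJB 5 with 31.03 CPM and DJB 6 with 20.3 CPM, where the other keratins were low. The groups overlapped, and the log2 fold change of 0.61 did not pass the test (standard error 0.75, edgeR adjusted p = 0.670). Krt78, a keratin of upper stratified layers, did not reach the filter and was not tested. It had 12 counts in visceral DJB and 1673 counts in visceral T2DM libraries, where libraries 3 and 4 had 11.7 and 8.60 CPM.

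Without visceral T2DM libraries 2, 3 and 4, 0 keratins were called against DJB, and Krt7 had a log2 fold change of -1.82 (edgeR adjusted p = 0.365) and Krt8 one of -0.63 (edgeR adjusted p = 0.910). The same fit, which has 3 T2DM libraries, left larger negative values for Krt20 (-3.29), Krt15 (-2.98), Krt14 (-2.25) and Krt23 (-2.05), none of which passed. The count was 3 without T2DM library 2 alone, 0 without DJB library 1, 2, 5 or 6, 1 without DJB library 3, and 0 with limma on log2(FPKM + 1), with only the 2 groups fitted or with a replicate block. When each library was left out, the log2 fold changes of the called keratins stayed negative. They were -7.17 to -6.43 for Krt7, -7.89 to -6.79 for Krt15 and -5.40 to -4.54 for Krt8. Wider ranges were those of Krt20 (-11.0 to -7.26), Krt14 (-5.53 to -3.58) and Krt5 (-6.95 to -5.25). Calls over all genes fell to 1 or 2 without DJB library 1, 2, 5 or 6. T2DM library 2 also stood apart in its gene lengths: across 14019 genes, Spearman's rho between a gene's deviation and its length was -0.54 there and -0.38 in T2DM library 5, against -0.20 to 0.39 in the other 20 libraries. Its part in the keratin levels was not tested. Libraries 3 and 4, at 0.12 and 0.23, had simple keratin sums of 1859.6 and 1159 CPM, beside 1553 CPM in library 2. By FPKM, which lacks the TMM factors, library 2 was the lowest of these with 432, against 1440 in library 3 and 763 in library 4.

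**Figure D2:**
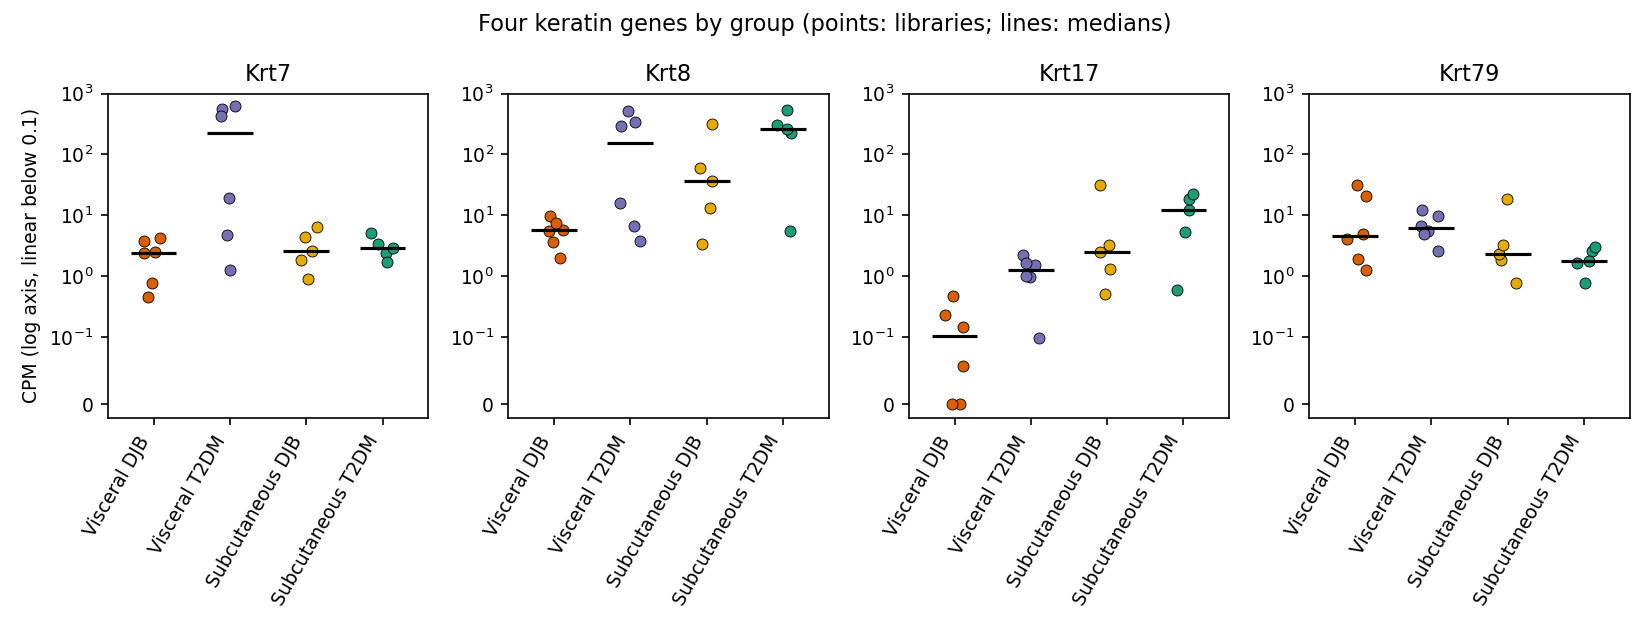
Krt7, Krt8, Krt17 and Krt79 in CPM on a log axis that is linear below 0.1; each point is a library and each line a group median. Krt7 is high only among visceral T2DM libraries. Krt8 is high in visceral T2DM libraries 2, 3 and 4, in subcutaneous T2DM libraries 1 to 4 and in subcutaneous DJB library 4. The highest Krt17 libraries are subcutaneous. Krt79 is highest in visceral DJB libraries 5 and 6, although its median is 4.53 CPM in visceral DJB and 6.10 CPM in visceral T2DM.

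In subcutaneous fat, no keratin differed between DJB and T2DM by the test. Of the 13 tested, 0 passed, at an unadjusted p under 0.05 the count was also 0, and DESeq2 called 0. Over all genes tested, edgeR called 0%, and 8.98% had an unadjusted p under 0.05. Of the 13 fold changes, 11 were negative, with a median log2 value of -0.63 against 0.05 over all genes.

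The levels varied widely within both subcutaneous groups. Krt8 was 60.4, 13.3, 3.36, 312 and 35.8 CPM in the 5 DJB libraries, and 301, 221, 259, 530.2 and 5.48 CPM in the 5 T2DM libraries. DJB library 4 was in the range of T2DM libraries 1 to 4, and T2DM library 5 was close to the lowest DJB library, so the groups overlapped. The log2 fold change of Krt8 was -1.63 with a standard error of 1.18 (edgeR adjusted p = 0.801). Krt18 was 24.1, 19.9, 1.26, 163 and 16.8 CPM in DJB, and 117, 109, 125, 227 and 0.879 CPM in T2DM libraries. Krt19 was 22.3, 6.37, 2.54, 144 and 17.4 CPM in DJB, and 155, 106, 124, 285 and 2.73 CPM in T2DM libraries. The same libraries were high for all 3 genes, and neither Krt18 (edgeR adjusted p = 0.873) nor Krt19 (edgeR adjusted p = 0.766) passed.

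Krt7 stayed low in all 10 subcutaneous libraries. It was 4.32, 0.891, 2.58, 6.33 and 1.83 CPM in DJB, and 2.39, 1.69, 3.35, 5.13 and 2.90 CPM in T2DM libraries, also in the libraries with the most Krt8. Krt20 was at most 2.72 CPM in DJB and at most 2.97 CPM in T2DM libraries. Among basal keratins, Krt5 was 1.45 to 47.8 CPM in DJB and 1.85 to 33.9 CPM in T2DM libraries. Krt14 was 0.545 to 16.1 CPM in DJB and 1.67 to 18.7 CPM in T2DM, and Krt15 was 1.49 to 7.90 CPM in DJB and 1.21 to 13.3 CPM in T2DM. The ranges of the 2 groups overlapped for each of these genes.

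Krt17 was 3.22, 0.505, 1.29, 30.7 and 2.44 CPM in subcutaneous DJB, and 12.0, 18.2, 5.30, 22.4 and 0.596 CPM in subcutaneous T2DM libraries. Krt23 was 0.121 to 7.22 CPM in DJB and 0.134 to 9.65 CPM in T2DM libraries. Krt80 was 0.213 to 2.93 CPM in DJB and 0.801 to 3.11 CPM in T2DM libraries. Krt79 was 1.82, 0.771, 2.28, 3.22 and 18.6 CPM in DJB, and 2.60, 2.96, 1.76, 1.66 and 0.760 CPM in T2DM libraries. Library 5 of the DJB group was alone in its high Krt79, and the log2 fold change of 1.45 did not pass (standard error 0.83, edgeR adjusted p = 0.668). Krt78 had 0 counts in DJB and 17 counts in T2DM libraries.

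Between the depots of T2DM rats, Krt7 was higher in visceral fat and was the 1 keratin of 13 called. In this comparison 8.72% of all genes tested were called, 5.44% as higher and 3.28% as lower in visceral fat. At an unadjusted p under 0.05 there were 5 of 13 keratins, against 24.6% of all genes. Krt7 ranged over 1.23 to 624 CPM in visceral and over 1.69 to 5.13 CPM in subcutaneous T2DM libraries. The log2 fold change was 6.47 with a standard error of 1.28 (edgeR adjusted p = 0.0046). Visceral library 6 lay below and library 5 within the subcutaneous range, so the groups overlapped. Without visceral T2DM libraries 2, 3 and 4 the log2 fold change of Krt7 was 1.41 (edgeR adjusted p = 0.335).

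The other simple keratins did not pass between the T2DM depots. Median levels of Krt8 were 156 CPM in visceral and 259 CPM in subcutaneous fat (edgeR adjusted p = 0.859), and those of Krt18 were 73.0 and 117 CPM (edgeR adjusted p = 0.970). Krt19 had medians of 147 CPM in visceral and 124 CPM in subcutaneous fat (edgeR adjusted p = 0.826). Krt15 had medians of 57.4 and 9.63 CPM in visceral and subcutaneous fat, with a log2 fold change of 3.64 that missed the threshold (edgeR adjusted p = 0.0535). Krt17 went the other way, with medians of 1.25 CPM in visceral and 12.0 CPM in subcutaneous fat and a log2 fold change of -3.24 (edgeR adjusted p = 0.0638). DESeq2 called 4 keratins here, Krt7, Krt15 and Krt80 as higher and Krt17 as lower in visceral fat.

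Between the depots of DJB rats, Krt17 was lower in visceral fat and was the 1 keratin called. In this comparison 1.32% of all genes tested were called, 1.09% as lower in visceral fat. Krt17 was 0 to 0.469 CPM in visceral and 0.505 to 30.7 CPM in subcutaneous DJB libraries, and the groups did not overlap. The fitted log2 fold change was -5.66 with a standard error of 1.21 (edgeR adjusted p = 0.0278). Krt8 was 1.99 to 9.64 CPM in visceral and 3.36 to 312 CPM in subcutaneous DJB libraries, with a log2 fold change of -3.91 (edgeR adjusted p = 0.104). Krt19 and Krt23, with log2 fold changes of -4.22 and -5.38, also missed the threshold (edgeR adjusted p = 0.0950 and 0.0802). Of the 13 keratins, 10 had an unadjusted p under 0.05, against 14.5% of all genes, and DESeq2 called 9. Members that passed the filter only outside visceral DJB fat, as given above, count here too. The Krt17 call was lost without any 1 of the 6 visceral DJB libraries and without subcutaneous DJB library 4, which held its highest value. The log2 fold changes in those and the other leave-one-out fits were -6.43 to -3.63, the smallest being that without subcutaneous library 4.

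Whether DJB and T2DM differed by another amount in visceral than in subcutaneous fat was tested as an interaction. Of the 13 keratins, 0 were called by edgeR, as were 0% of all genes. At an unadjusted p under 0.05 there were 9 of 13 keratins, against 14% of all genes, with the same limit from the filter. Krt7, the keratin called between the T2DM depots, had an interaction log2 value of -6.91 with a standard error of 1.53 (edgeR adjusted p = 0.120). DESeq2 called 3 keratins, Krt7, Krt15 and Krt5, each with a more negative change in visceral fat.

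Levels per gene length set the keratins of visceral and subcutaneous libraries apart by their make-up, but only where keratin was plentiful. Summed keratin FPKM was 13.6 to 29.6 in visceral DJB, 12.7 to 1855 in visceral T2DM, 17.6 to 344 in subcutaneous DJB and 14.3 to 670 in subcutaneous T2DM libraries. Simple keratins made up a median of 45.8%, 69.4%, 80.3% and 90.4% of it in the same order of groups. Sums of FPKM and of CPM are scaled differently between libraries. Visceral T2DM libraries 2 and 3 had 480 and 1855 by FPKM, and 1749 and 2569 by CPM. In all libraries, keratin genes took 0.00261% to 0.354% of all counts. These shares and the ratios that follow are descriptions of single libraries, with no test.

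Krt7 made up 17.7% to 26.3% of keratin FPKM in visceral T2DM libraries 1 to 4. In subcutaneous T2DM libraries 1 to 4 its share was 0.257% to 0.476%, and in the keratin-rich subcutaneous DJB library 4 it was 0.690%. The FPKM ratio of Krt7 to Krt8 was 1.13 to 1.56 in visceral T2DM libraries 1 to 4 and 0.00722 to 0.0122 in subcutaneous T2DM libraries 1 to 4. Visceral T2DM library 1, with keratin FPKM of 49.1 in all, was at the low end of both ranges, with a Krt7 share of 17.7% against 21.5% to 26.3% in libraries 2, 3 and 4. In libraries with little keratin the depots overlapped. The Krt7 to Krt8 ratio was 0.0436 to 0.686 in visceral DJB libraries, and 0.661 and 0.303 in visceral T2DM libraries 5 and 6. It was 0.501 in subcutaneous T2DM library 5 and 0.728 in subcutaneous DJB library 3. The ratio of Krt8 to its partner Krt18 was 1.03 to 1.49 in visceral T2DM libraries 2, 3 and 4 and 1.41 to 1.80 in subcutaneous T2DM libraries 1 to 4.

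**Figure D3:**
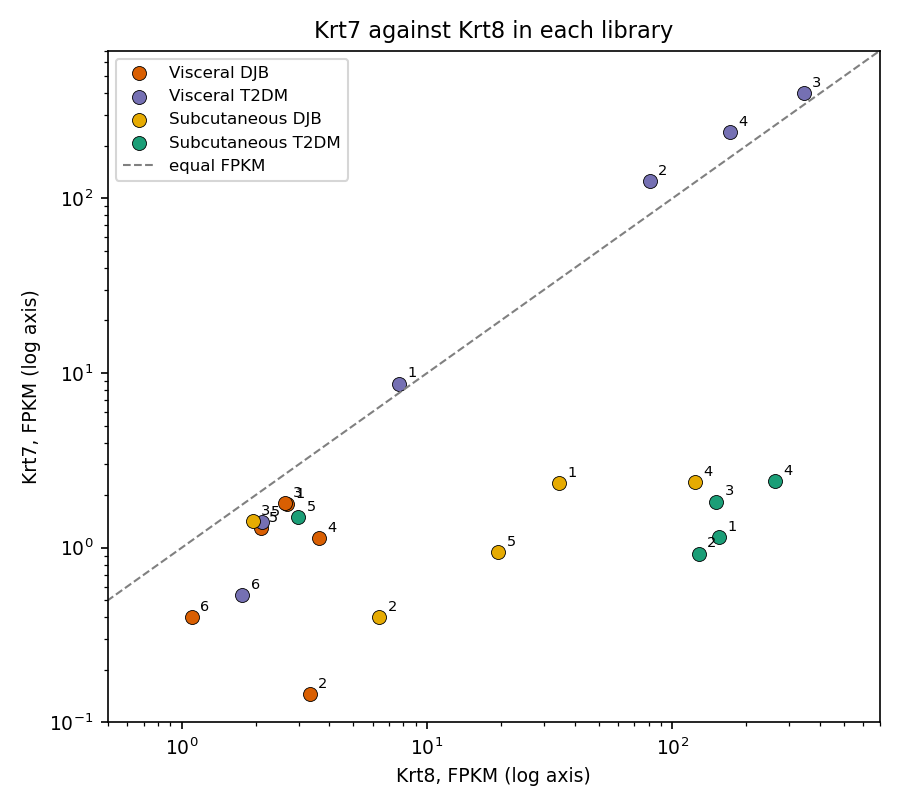
FPKM of Krt7 against FPKM of Krt8 on log axes, 1 point per library labelled with its replicate number; the dashed line marks equal FPKM. Visceral T2DM libraries 1 to 4 lie just above the line, library 1 at a Krt8 FPKM of 7.68 and libraries 2, 3 and 4 at 81.0 to 343, and subcutaneous T2DM libraries 1 to 4, at 128 to 263, lie far below it, at Krt7 to Krt8 ratios of 0.00722 to 0.0122.

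Basal keratins also differed in make-up between the keratin-rich libraries. The FPKM ratio of Krt5 to Krt14 was 3.62, 5.10 and 5.17 in visceral T2DM libraries 2, 3 and 4, and 1.02 to 1.83 in subcutaneous T2DM libraries 1 to 4. Krt15 had 4.34, 1.36 and 4.80 times the FPKM of Krt5 in those 3 visceral libraries, and 0.651 to 1.05 times in the 4 subcutaneous ones. Krt17 took 0.0507% to 0.103% of keratin FPKM in visceral T2DM libraries 2, 3 and 4, and 0.752% to 2.76% in subcutaneous T2DM libraries 1 to 4. Within the visceral libraries, the ratio of Krt5 to Krt8 was 0.0826 in library 2, 0.419 in library 3 and 0.234 in library 4. Visceral DJB libraries 5 and 6 were of another kind, since Krt79 made up 64.0% and 60.3% of their low keratin FPKM.

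**Figure D4:**
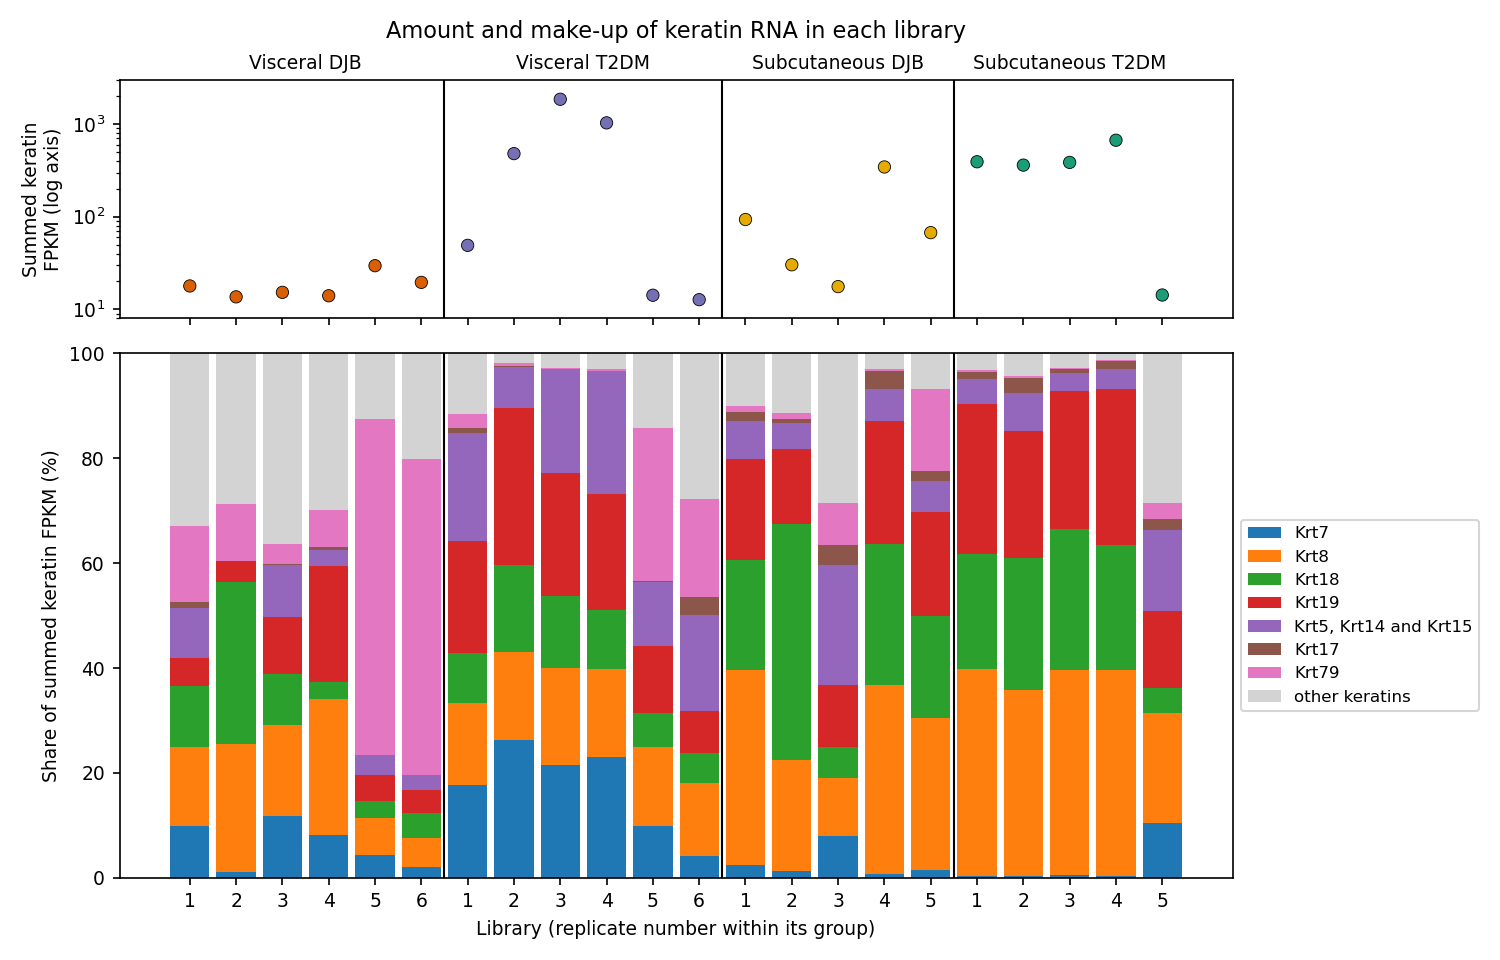
Upper panel, summed keratin FPKM of each library on a log axis; lower panel, the share of that sum in percent held by each of the leading keratins. Krt7 takes 17.7% to 26.3% in visceral T2DM libraries 1 to 4 and 0.257% to 0.476% in subcutaneous T2DM libraries 1 to 4, and Krt79 takes 64.0% and 60.3% in visceral DJB libraries 5 and 6.

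The 26 keratins outside the 13 described by library were all at or below 5.76 CPM in every library. Of them, 11 had between 1 and 99 counts over the 22 libraries, and Krt84 had none. The highest value was that of Krt12, a corneal keratin, in visceral T2DM library 3. Krt4, a keratin of the oesophagus and other moist stratified linings, is singled out after its values were seen. It had 4 counts in visceral DJB, 473 in visceral T2DM and 0 in subcutaneous libraries, with a highest level of 4.12 CPM in visceral T2DM library 4. Krt13, listed with Krt4, went the other way, with 64 counts in visceral DJB and 0 in visceral T2DM libraries. In subcutaneous fat it had 58 counts in DJB and 8 in T2DM libraries. The epidermal keratins Krt1, Krt2 and Krt10 were at or below 4.01 CPM in all 22 libraries. The lists of keratins by epithelium also named Krt6a, Krt6b, Krt3 and Krt24, which had no row matched in the table.

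To set the keratins beside other epithelial genes, marker lists were summed in each library. The 12 genes shared by most epithelia, led by Cldn4, Epcam and Cdh1, which act in junctions and adhesion, summed to 9.56 to 21.6 CPM in visceral DJB and 23.4 to 1353 CPM in visceral T2DM libraries. Of the 11 tested, 11 were called lower after DJB in visceral fat, against 4.27% of all genes tested. Calls over all genes fell to 1 or 2 without DJB library 1, 2, 5 or 6, so few of these calls could hold in those fits. Cldn7, Esrp1, Grhl2 and Rab25, singled out after their values were seen, were each at most 0.784 CPM in visceral DJB libraries. Genes this low there may have passed the filter only through the other groups, so the count may be in part set by the filter. The same 12 genes summed to 24.0 to 541 CPM in subcutaneous DJB and 15.5 to 1133 CPM in subcutaneous T2DM libraries. They were therefore high in the keratin-rich libraries of both depots.

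Urothelial markers were high in the keratin-rich visceral libraries and low in subcutaneous ones. Uroplakins are membrane proteins of the urothelial surface. The 9 urothelial genes summed to 2.01 to 8.54 CPM in visceral DJB libraries. Visceral T2DM libraries 2, 3 and 4 had sums of 1311, 1370 and 962 CPM. Library 1 of that group had 49.8 CPM and libraries 5 and 6 had 12.1 and 6.22 CPM. Subcutaneous sums were 2.74 to 8.68 CPM in DJB and 4.14 to 9.17 CPM in T2DM libraries. Of the 7 tested, 7 were called lower in visceral DJB than in visceral T2DM fat, against 4.27% of all genes. Between the T2DM depots, 6 were called higher in visceral fat, against 5.44% of all genes. The calls between DJB and T2DM share the limits given for the genes of most epithelia. Upk2, singled out after its values were seen, was at most 0.541 CPM in visceral DJB libraries. It was at most 0.866 CPM in subcutaneous DJB and 0.361 CPM in subcutaneous T2DM libraries. Genes this low outside visceral T2DM fat may have passed the filter only through that group. Both counts of calls may therefore be in part set by the filter. Upk1a was 0 to 2.87 CPM in visceral DJB libraries, while T2DM libraries 2, 3 and 4 had 404, 370.2 and 265 CPM of it. Fgfbp1, also on the list and named after its values were seen, was at most 0.386 CPM in any library. The part of urothelial RNA in the keratin levels was not tested.

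Mammary secretory markers were high in the keratin-rich subcutaneous libraries. The 10 genes, led by the milk protein genes Csn1s1, Csn3 and Lalba, summed to 18980, 6069, 669, 95749 and 8451 CPM in subcutaneous DJB libraries. In subcutaneous T2DM libraries 1 to 4 the sum was 73356 to 183443 CPM, and in library 5 it was 530.2 CPM. The libraries lowest in milk protein genes, DJB 3 and T2DM 5, were also those lowest in Krt8, Krt18 and Krt19. Visceral sums were 0.782 to 605 CPM in DJB and 267 to 543 CPM in T2DM libraries, and the keratin-rich T2DM libraries 2, 3 and 4 had 405, 267 and 470.0 CPM. Of the 9 tested, 8 were lower in visceral than in subcutaneous fat, in DJB and in T2DM rats alike. Over all genes, 1.09% were called lower in DJB and 3.28% in T2DM rats. Elf5, singled out after its values were seen, was at most 0.927 CPM in visceral DJB and 0.812 CPM in visceral T2DM libraries. These counts may thus also be in part set by the filter. Between DJB and T2DM, 0 mammary genes were called in either depot, against 4.69% of all genes in visceral and 0% in subcutaneous fat. Ltf, named for the same reason as Fgfbp1, was at most 0.166 CPM in any library. The part of mammary RNA in the subcutaneous keratin levels was not tested.

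Among mesothelial and epidermal markers, single genes differed from each other. The 7 mesothelial genes measured, led by Pkhd1l1, Wt1 and Gpm6a, summed to 33.4 to 59.0 CPM in visceral DJB and 11.1 to 53.9 CPM in visceral T2DM libraries. Of 4 tested, 0 were called between these groups, against 4.69% of all genes. Wt1, a transcription factor of mesothelium and of some visceral fat progenitors, was 12.3 to 37.2 CPM in visceral DJB libraries and 29.8, 11.8, 2.65, 7.25, 6.05 and 13.4 CPM in visceral T2DM libraries 1 to 6. It was low in keratin-rich libraries 3 and 4 and in keratin-poor library 5 alike, and was at most 0.319 CPM in subcutaneous libraries. Msln and Upk3b, from the same list and singled out after their values were seen, were 0.363 to 10.9 CPM and 0 to 4.61 CPM in visceral DJB libraries, highest in DJB library 4, where Krt8 was 7.36 CPM. T2DM libraries 2, 3 and 4 had 15.4, 33.8 and 14.1 CPM of Msln and 3.50, 8.41 and 6.68 CPM of Upk3b, so library 2 was below DJB library 4 for Upk3b.

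Of the 10 epidermal genes measured, several that mark the cornified layer were near 0 and others were not; these are named after their values were seen. Lor, which codes for the main protein of the cornified layer, was at most 0.0616 CPM, Krtdap at most 0.0683 CPM and Casp14 at most 0.201 CPM in any library. The list's sum was 5.87 to 18.7 CPM in visceral DJB and 19.9 to 101 CPM in visceral T2DM libraries, mostly from Calml3 and Sbsn. Calml3, a calmodulin-like gene of epithelial cells, was 0.934 to 14.2 CPM in visceral DJB libraries and 7.23 to 94.7 CPM in visceral T2DM libraries, with 66.2, 94.7 and 37.3 CPM in libraries 2, 3 and 4. Ivl, which codes for another protein of the cornified layer, was at most 0.0727 CPM in visceral DJB libraries and 0.626, 2.89 and 2.69 CPM in those 3 T2DM libraries. Of the 4 epidermal genes tested, 1 was called lower after DJB in visceral fat, against 4.27% of all genes. The 5 intestinal genes measured summed to at most 2.31 CPM in visceral DJB and 5.08 CPM in visceral T2DM libraries, and to at most 16.3 CPM in subcutaneous DJB and 60.8 CPM in subcutaneous T2DM libraries, where Slc5a1 held nearly all of it.

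**Figure D5:**
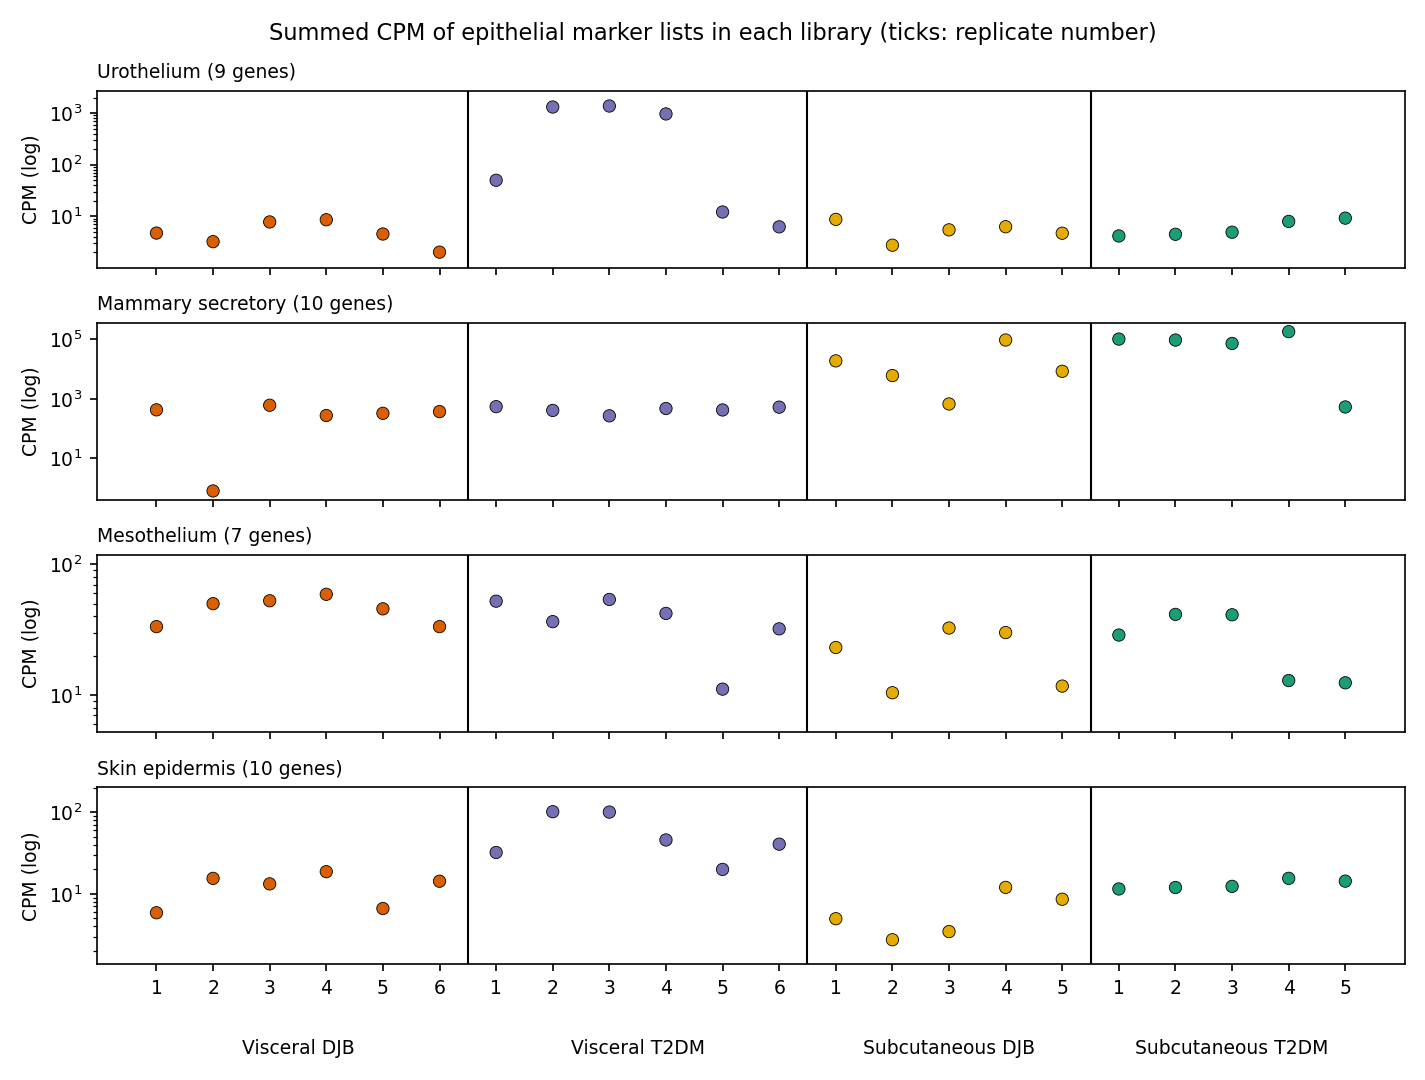
Summed CPM of 4 marker lists on log axes, 1 point per library, grouped by depot and condition. Urothelial genes reach 962 to 1370 CPM in visceral T2DM libraries 2, 3 and 4. Mammary secretory genes reach 73356 to 183443 CPM in subcutaneous T2DM libraries 1 to 4 and 95749 CPM in subcutaneous DJB library 4. The mesothelial sum is between 10.4 and 59.0 CPM in all libraries. Of its leading genes, Pkhd1l1 and Gpm6a overlap between the depots and Wt1 does not. Wt1 is at most 0.319 CPM in subcutaneous and at least 2.65 CPM in visceral libraries.

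The keratin-rich visceral libraries were not alike in several of their smooth muscle and basal cell genes. The 6 genes listed for mammary basal cells, led by the smooth muscle genes Myh11, Acta2 and Mylk, summed to 544 to 1570 CPM in visceral DJB and 579 to 4026 CPM in visceral T2DM libraries. Libraries 3 and 4 of the T2DM group had 4026 and 2672 CPM, while library 2 had 600.1 CPM. Myh11, which vessel and organ muscle also use, was 2139 and 1342 CPM in libraries 3 and 4 and 107 CPM in library 2. Tp63, a transcription factor of basal epithelial cells that was singled out after its values were seen, was 102 and 83.0 CPM in libraries 3 and 4 and 4.34 CPM in library 2. These 2 libraries were also those with the higher ratios of Krt5 to Krt8. Of the 7 adipocyte markers tested, 0 were called between DJB and T2DM in either depot, against 4.69% of all genes in visceral and 0% in subcutaneous fat. Between the T2DM depots, 5 were higher in visceral fat, against 5.44% of all genes. The adipocyte markers summed to 5279.8 to 12294 CPM in visceral DJB libraries, and 44656, 10398 and 8108 CPM in T2DM libraries 2, 3 and 4. Most of the sum in library 2 was Fabp4, a fatty acid carrier, with 34119 CPM, while Lep, the leptin gene, went the other way with 10.9 CPM there and 121 and 150.5 CPM in libraries 3 and 4.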

How the data were processed

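The 22 libraries were made from total RNA (10 ug, Trizol extraction) by standard Illumina protocols, per the labels' protocols. The authors deposited 1 gene table with raw read counts and FPKM per library, per the file headers. Per the submitters' processing notes, cutadapt 1.9, FastQC and the build mRatBN7.2 were used; the sources used here name no aligner, counter, annotation or strand setting, and the table's coordinates were not used because they could not be matched to a named build. Within the table, FPKM and counts kept the same ratio between libraries within rounding (SD of the log2 ratio 0.00150 over 11347 genes), so both come from the same counts. Files of 22 libraries were checked against each other, and 0 pairs were identical.

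Counts of 14019 genes (5 or more libraries with an FPKM of 1 or above) were fitted in edgeR 4.0.16 under R 4.3.3, with TMM scaling (factors 0.543 to 1.39), 1 mean per group over all 22 libraries, 5 contrasts, two-sided quasi-likelihood tests and Benjamini-Hochberg adjustment over all genes at 0.05. The biological coefficient of variation was 0.551 and the median prior degrees of freedom 3.21. The test was run on simulated data with known changes first. Alternatives were DESeq2 1.42.0, its size factors in edgeR, no filter, limma 3.58.1 on log2(FPKM + 1), only the groups compared, a replicate block and leaving out each library; leaving out visceral T2DM libraries 2, 3 and 4 together was chosen after seeing the data. Keratins given by library were the 5 simple ones and every other keratin with at least 10 CPM in a library; at most 3 genes per marker list are named, by mean CPM, unless said otherwise. The keratins, marker lists and rules were chosen with earlier results of these data known. Promoter sequences are RefSeq's (GRCr8); all 39 symbols matched and 26 had a promoter entry.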

Additional observations from a re-analysis of the deposited data

Results flagged for a closer look

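Of 52 sets of libraries tested for a single value far from the others (Dixon's test, each named keratin in each group), 13 had one. Chance gives about 1 in 20 only for independent sets with a normal spread. CPM here were skewed and keratins rose in the same libraries, so the count cannot be set against that rate. Subcutaneous DJB library 4 accounted for 7 of them, being above the other 4 libraries of its group with 312 CPM of Krt8, 163 CPM of Krt18, 144 CPM of Krt19, 2.72 CPM of Krt20, 47.8 CPM of Krt5, 16.1 CPM of Krt14 and 30.7 CPM of Krt17. The nearest other library of the group had 60.4 CPM of Krt8 and 3.22 CPM of Krt17. The same library had the highest summed mammary secretory markers of its group, 95749 CPM. Visceral T2DM library 3 stood above its group with 345 CPM of Krt5 and 45.5 CPM of Krt14, the next being 112 and 14.7 CPM. Subcutaneous DJB library 5 stood out with 18.6 CPM of Krt79, against 3.22 CPM in the next. The other 3 were small values in visceral DJB fat: 8.57 CPM of Krt18 in library 2, 1.68 CPM of Krt14 in library 1 and 0.0877 CPM of Krt20 in library 4.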

How the results depend on the processing

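The count of 9 keratins called in visceral fat between DJB and T2DM was 11 with DESeq2, 9 with DESeq2's size factors and 8 with no filter. It was 0 with limma, 0 with only the 2 groups fitted, 0 with the replicate block and 0 without visceral T2DM libraries 2, 3 and 4 together; the keratins with an unadjusted p under 0.05 were then 9, 11, 11 and 3. Leaving out each library in turn gave 0 to 10. Over all genes, edgeR called 658, limma 0, the fit of the 2 groups 1, the replicate block 0 and DESeq2 1459, so these drops were shared by genes at large. Between T2DM depots the count of 1 became 4 with DESeq2, 3 with no filter (Krt7, Krt12 and Krt4) and 3 with only those groups (Krt7, Krt17 and Krt79), and leaving out a library gave 1 to 2. Limma's 1 call there was Krt17, and without visceral libraries 2, 3 and 4 the 1 call was Krt8. Between DJB depots the count of 1 became 9 with DESeq2 and 0 with limma, with only those groups and with the replicate block; leaving out a library gave 0 to 2. The interaction count of 0 became 3 with DESeq2 and stayed 0 when a library was left out. In subcutaneous fat the count was 0 throughout, also when each library was left out. Whether equal replicate numbers mark the same rat in both depots is not known. Same-numbered libraries correlated above 0.1 in 3 of 6 visceral, 1 of 5 subcutaneous, 1 of 5 T2DM and 1 of 5 DJB pairs. The visceral and subcutaneous pairs set DJB against T2DM libraries, and low correlations between depots cannot exclude a shared rat. The replicate block gives each number the same effect in all 4 groups. It thus also ties DJB to T2DM libraries, which the labels do not pair, and is only an alternative fit.

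Some log2 fold changes turned round. Krt79 in visceral fat, DJB against T2DM, was -0.11 with the replicate block and -0.090 to 0.80 when each library was left out. Without visceral T2DM libraries 2, 3 and 4, Krt80 in visceral fat was 0.17, and between T2DM depots Krt15 was -0.73, Krt19 -4.28, Krt20 -2.28 and Krt5 -2.60; Krt19 there was -0.88 with limma. Visceral T2DM libraries 1, 5 and 6, left after that removal, had 15.2, 3.96 and 1.55 CPM of Krt19, against a subcutaneous T2DM median of 124 CPM. Their Krt5 was 6.82, 2.02 and 1.13 CPM, against a median of 22.7 CPM. The cause of the turns was not tested. DESeq2's size factors left all 41 fold changes with their direction and side of the threshold. Median shares of simple keratins were 40.0%, 65.7%, 76.5% and 88.2% by CPM in visceral DJB, visceral T2DM, subcutaneous DJB and subcutaneous T2DM. Counts of Krt20, Krt23 and Krt78 in visceral DJB are too few for precise folds.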

Other observations

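Visceral DJB library 2 had less of the mammary secretory genes than any other library. Their sum was 0.782 CPM there, against 273 to 605 CPM in the other 5 visceral DJB libraries, and Csn1s1 was 0.717 CPM against 247 to 555 CPM. The same library had 0 counts of Krt5, Krt15 and Krt17 and 28 counts of Krt7, but 592 counts of Krt8. Its Krt8 level of 9.64 CPM and Krt18 level of 8.57 CPM were the highest of the visceral DJB group.

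Krt10, tested but below the level for values by library, had a median of 0.862 CPM in visceral DJB and 1.51 CPM in subcutaneous DJB libraries, and these groups did not overlap (edgeR adjusted p = 0.0651).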
